A study of Rattus norvegicus with 62 samples.

Results

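A set of 4 neuropeptide precursor genes with known roles in anxiety and fear were followed through the RNA-seq counts of 62 rat amygdala samples. They were *Crh* (ENSRNOG00000012703), *Penk* (ENSRNOG00000008943), *Pdyn* (ENSRNOG00000026036) and *Tac1* (ENSRNOG00000007374), 4 of the 32545 genes in the count table. The genes were taken by ID and by no cutoff on a measured value, but with earlier results of these data known. All 4 were among the 16535 genes with enough counts for testing. The count table names genes by ID only, and the pairing of these 4 IDs with symbols came with the choice of genes.

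Each of the 4 genes encodes a precursor protein that is cut into small secreted peptides, which act on G protein-coupled receptors of nearby or distant cells. *Crh* gives corticotropin-releasing hormone, which drives the endocrine stress response from the hypothalamus and acts as a local transmitter in the central amygdala. *Penk* gives the enkephalins, opioid peptides that act mainly on delta and mu receptors, and *Pdyn* gives the dynorphins, which prefer the kappa receptor. *Tac1* gives substance P and neurokinin A, the ligands of the tachykinin receptors. In the rodent amygdala the cells that make these precursors include inhibitory neurons of the central nucleus. *Penk*, *Pdyn* and *Tac1* are also abundant in the projection neurons of the neighboring striatum.

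The samples were bilateral tissue punches that took the central and the basolateral nucleus together, from male Long Evans rats of 250 to 300 grams that were 10 to 12 weeks old when the study began. Blast animals received a 74.5 kPa overpressure event every 24 h over 72 h in a shock tube, and sham animals were handled in the same way without the blast. The sub-acute groups (labeled acute in the deposited records, 17 sham and 17 blast animals) were studied a little over a month after exposure and the chronic groups (14 sham and 14 blast animals) after about a year or more, so that the time-points also differ in age. The study put its animals through behavioral tests, fear conditioning with foot shock among them, before the tissue was taken. Because a punch holds many cell types, fewer cells of a type and less RNA per cell cannot be told apart in any value given here, and the markers that would tell the nuclei apart could not be looked up among the gene IDs.

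Total counts ran from 18220986 to 78585782 per animal, with medians of 42328495 and 37460121 in the chronic sham and blast groups, against 50123693 and 54959799 in the sub-acute groups. Only 2 libraries had fewer than 25000000 counts, those of chronic sham animal CS115 and chronic blast animal CB149, and these also stood apart from the rest. Their median correlations with the other libraries over all tested genes were 0.931 and 0.928, against at least 0.962 for every other library. Comparisons that include chronic animals, correlations over all animals and part of the ratios are also given without them. Other values include them, such as the SD within groups, r in single groups and the ranks of r. Levels are in CPM, read counts scaled to the size of the library after TMM normalization, which compares animals for 1 gene but not 1 gene with another, since gene lengths were not available in the build the counts use.

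*Penk*, the enkephalin precursor, had a median level of 561 CPM in sub-acute sham animals (lowest 19.4, highest 1265), 486 CPM in sub-acute blast animals (lowest 125.2, highest 1336), 606 CPM in chronic sham animals (lowest 131.98, highest 2560) and 504 CPM in chronic blast animals (lowest 44.4, highest 1341). The ranges of the 4 groups overlapped, and in every group the highest animal exceeded the lowest by at least 10.7-fold. A single animal, sub-acute sham AS208, set the low end at 1164 counts, and the highest value came from chronic sham animal CS115, one of the 2 shallow libraries. Mean log2 CPM was 8.85 ± 1.33 (SD, n = 17), 8.94 ± 0.87 (SD, n = 17), 9.22 ± 1.08 (SD, n = 14) and 8.80 ± 1.30 (SD, n = 14) in the same order of groups.

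*Pdyn*, the dynorphin precursor, had a median of 58.5 CPM in sub-acute sham animals (lowest 10.6, highest 239.5), 82.1 CPM in sub-acute blast animals (lowest 10.8, highest 235), 93.9 CPM in chronic sham animals (lowest 28.3, highest 215.7) and 70.8 CPM in chronic blast animals (lowest 7.96, highest 228). Chronic sham animals had the narrowest range, 7.62-fold from lowest to highest, against 21.7-fold to 28.7-fold in the other groups, and all ranges overlapped. Mean log2 CPM was 5.78 ± 1.24 (SD, n = 17) in sub-acute sham, 5.94 ± 1.33 (SD, n = 17) in sub-acute blast, 6.46 ± 0.97 (SD, n = 14) in chronic sham and 5.93 ± 1.30 (SD, n = 14) in chronic blast animals.

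*Tac1*, the substance P precursor, had a median of 17.95 CPM in sub-acute sham animals (lowest 5.35, highest 111.1), 14.2 CPM in sub-acute blast animals (lowest 4.67, highest 131.8), 34.1 CPM in chronic sham animals (lowest 6.68, highest 110) and 22.8 CPM in chronic blast animals (lowest 8.22, highest 155). In each group the highest animal exceeded the lowest by 16.5-fold to 28.2-fold, and the groups overlapped over most of their ranges. Mean log2 CPM was 4.501 ± 1.22 (SD, n = 17) in sub-acute sham, 4.35 ± 1.43 (SD, n = 17) in sub-acute blast, 5.07 ± 1.19 (SD, n = 14) in chronic sham and 4.76 ± 1.38 (SD, n = 14) in chronic blast animals.

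*Crh* was counted least often, with 26 to 475 reads per animal. Its median level was 2.85 CPM in sub-acute sham animals (lowest 1.28, highest 8.23), 2.66 CPM in sub-acute blast animals (lowest 0.775, highest 8.01), 2.67 CPM in chronic sham animals (lowest 0.577, highest 6.999) and 1.55 CPM in chronic blast animals (lowest 0.739, highest 7.22). The chronic blast group had the lowest median, but its highest animal, at 7.22 CPM, exceeded the highest chronic sham animal and lay within the range of both sub-acute groups. Mean log2 CPM was 1.36 ± 0.73 (SD, n = 17) in sub-acute sham, 1.49 ± 0.88 (SD, n = 17) in sub-acute blast, 1.24 ± 0.97 (SD, n = 14) in chronic sham and 0.88 ± 0.96 (SD, n = 14) in chronic blast animals. The lowest count of 26 has an exact Poisson 95% interval of 17.0 to 38.1, which covers counting error only.

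**Figure D1:**
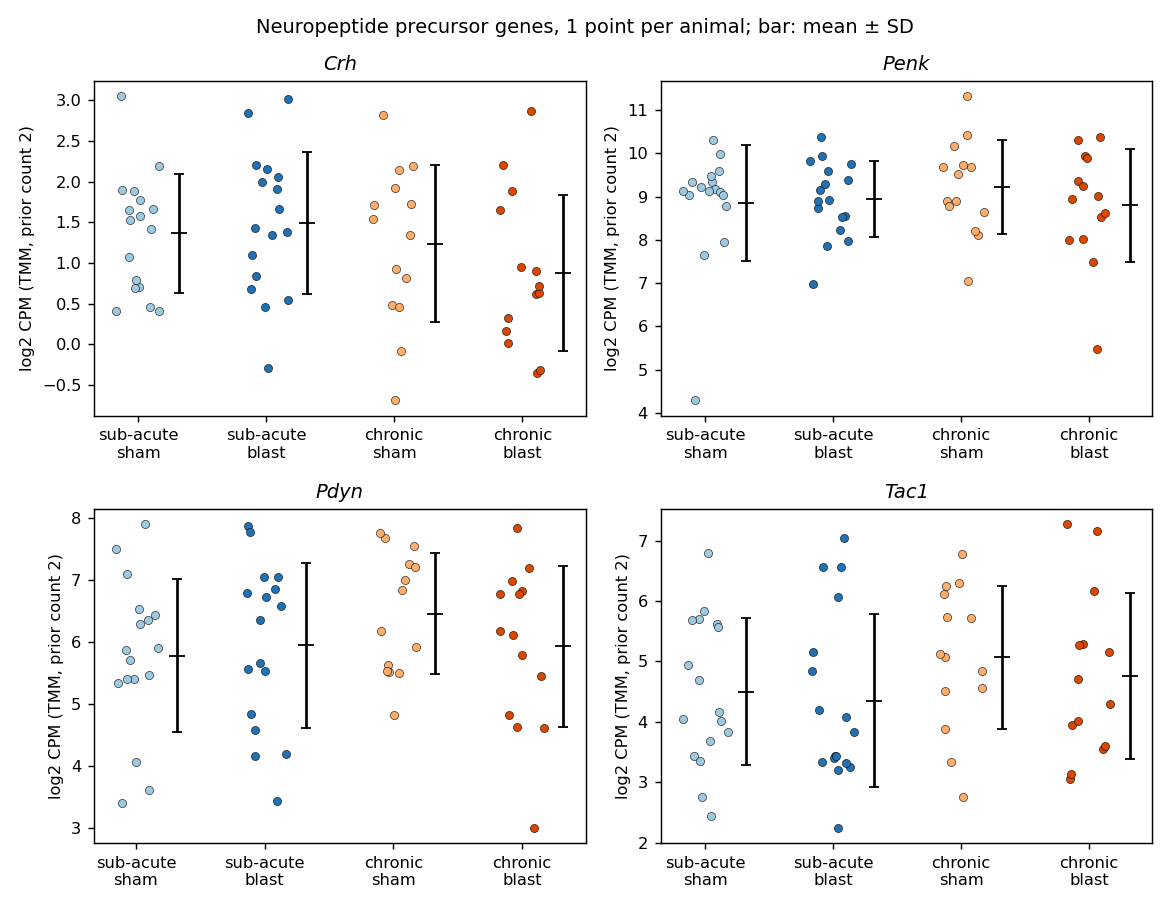
Level of each neuropeptide precursor gene as log2 CPM (TMM scaling, prior count 2), 1 panel per gene and 1 point per animal in the 4 groups, with the mean ± SD as a bar beside the points. The groups overlap for all 4 genes, and single animals such as sub-acute sham AS208 for *Penk* (19.4 CPM) lie far below their group.

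In rank order of mean log2 CPM, chronic sham animals were highest and chronic blast animals lowest for *Penk*. Chronic sham animals were also highest for *Pdyn* and *Tac1*, whereas the lowest group was sub-acute sham for *Pdyn* and sub-acute blast for *Tac1*. For *Crh* the order ran from chronic blast through chronic sham and sub-acute sham to sub-acute blast. No 2 neighbors in any of these orders differed by as much as the SD within a group. The widest gap between neighbors was 0.51 for *Pdyn*, where the smallest group SD was 0.97. From the lowest to the highest group the means spanned 0.61 for *Crh*, 0.42 for *Penk*, 0.67 for *Pdyn* and 0.72 for *Tac1* on the log2 scale. Group membership accounted for 6.54% of the variance of *Crh*, 1.90% of *Penk*, 4.20% of *Pdyn* and 4.36% of *Tac1*, where the median over all tested genes was 8.02%.

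The 4 genes varied far more between animals of the same group than most genes did. The SD of log2 CPM within groups was 1.31 for *Tac1*, 1.23 for *Pdyn*, 1.16 for *Penk* and 0.88 for *Crh*, against a median of 0.303 over the 16535 tested genes. Only 0.835% of tested genes had an SD at least as large as *Tac1*, 1.06% as large as *Pdyn*, 1.42% as large as *Penk* and 5.56% as large as *Crh*. At the median count of each gene, counting error alone gives an SD of 0.14 for *Crh*, 0.048 for *Tac1*, 0.027 for *Pdyn* and 0.0089 for *Penk*, which is well below the spread measured. Within groups the correlation with the log2 total count was -0.06 for *Crh*, -0.22 for *Penk*, -0.02 for *Pdyn* and 0.20 for *Tac1* across 62 animals, given as a description. Depth also differed between the time-points, so fits with the library total as a covariate are given with the comparisons over time below.

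**Figure D2:**
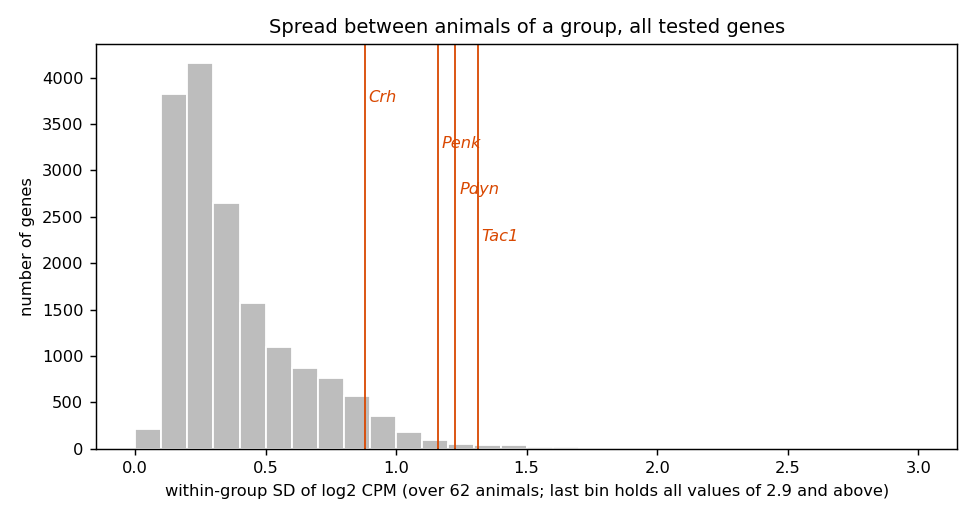
Histogram of the within-group SD of log2 CPM over the 16535 tested genes, in bins of 0.1, with a vertical line at each neuropeptide gene. *Penk*, *Pdyn* and *Tac1* lie in the thin right tail, at 1.16, 1.23 and 1.31, and *Crh* lies at 0.88.

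The first comparison asked whether blast changed these genes at the sub-acute time-point, when the animals are young. A call required a limma p under 0.05 after Benjamini-Hochberg adjustment over all tested genes, together with a 1.2-fold difference upward or downward. *Crh* was 1.10-fold the sham level in blast animals (95% interval 0.754 to 1.62), *Penk* 1.06-fold (0.621 to 1.81) and *Pdyn* 1.12-fold (0.637 to 1.97), while *Tac1* was 0.901-fold (0.490 to 1.66). Adjusted p in limma's test lay between 0.895 and 0.955, and 0 of 4 genes were called, where 0% of all tested genes were. At a raw p under 0.05 with the same fold threshold the count was also 0 of 4, against 1.21% of tested genes. The quasi-likelihood test of edgeR and DESeq2 called 0 of 4 as well, and each called 0% of tested genes. The intervals hold the changes compatible with the values at this spread between animals, and they are not a limit of detection. The direction was not stable for *Penk* (log2 fold change 0.08, but -0.01 with edgeR), *Tac1* (-0.15, but 0.11 with edgeR) or *Pdyn* (0.17, but -0.12 with sample quality weights). Animal numbers fall into series by their leading digit, and what a series stands for is not stated in the sources used here. Between series, *Tac1* ran in opposite directions, at 1.60 in series 1 (2 sham and 5 blast animals) and -0.55 in series 2 (14 sham and 12 blast animals), with raw p of 0.185 and 0.241 in limma's test. *Crh* was at -0.03 in series 1 and 0.28 in series 2, *Penk* at -0.04 and 0.11, and *Pdyn* at 0.90 and 0.05.

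Between chronic blast and sham animals all 4 log2 fold changes were negative, which is a description of genes that vary together and not 4 separate observations. *Pdyn* was at 0.691-fold the sham level (95% interval 0.370 to 1.29), *Penk* at 0.746-fold (0.415 to 1.34), *Crh* at 0.775-fold (0.470 to 1.28) and *Tac1* at 0.819-fold (0.420 to 1.59). The median log2 fold change was -0.39, against 0.00 over all tested genes. Adjusted p in limma's test was between 0.916 and 0.948, so 0 of 4 genes were called, with 0% called among all tested genes. None had a raw p under 0.05, a threshold that 2.5% of tested genes passed together with the fold. Neither edgeR nor DESeq2 called any of the 4, and each called 0% of tested genes. Without the 2 shallow libraries, 1 of which holds the highest *Penk* value, the log2 fold change of *Penk* was -0.29 in place of -0.42, that of *Pdyn* -0.49 in place of -0.53, that of *Crh* -0.35 in place of -0.37 and that of *Tac1* -0.21 in place of -0.29. With surrogate variables in the model, *Crh*, *Penk* and *Tac1* turned slightly positive, at 0.06, 0.05 and 0.19, and *Pdyn* moved from -0.53 to -0.06.

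In sham animals, which age without blast, *Pdyn* was at 1.60-fold (95% interval 0.880 to 2.89), *Tac1* at 1.49-fold (0.791 to 2.80) and *Penk* at 1.29-fold (0.735 to 2.26) in the chronic compared to the sub-acute group, and *Crh* at 0.918-fold (0.594 to 1.42). None was called, with adjusted p between 0.402 and 0.864 in limma's test, where 1.55% of all tested genes were called. The count at a raw p under 0.05 was 0 of 4, against 8.85% of tested genes that passed it together with the fold. It was 0 of 4 calls with edgeR and with DESeq2, which called 1.89% and 2.75% of tested genes. Every chronic animal belongs to number series 1, but only 2 of the 17 sub-acute sham animals do. With the series as a covariate the log2 fold changes shrank, from 0.67 to 0.39 for *Pdyn*, from 0.57 to 0.21 for *Tac1*, from 0.37 to 0.06 for *Penk* and from -0.12 to -0.09 for *Crh*. Within series 1 alone the log2 fold changes were 0.89 for *Pdyn*, 1.47 for *Tac1*, -0.03 for *Penk* and -0.28 for *Crh*, with only 2 sub-acute animals behind them and raw p of at least 0.19 in limma's test. Omitting the 2 shallow libraries lowered the log2 fold change of *Penk* from 0.37 to 0.20 and left *Pdyn* at 0.62, *Tac1* at 0.59 and *Crh* at -0.17. With the library total as a covariate, *Pdyn* was at 0.66, *Tac1* at 0.84, *Penk* at 0.09 and *Crh* at -0.17.

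In blast animals the chronic group had *Crh* at 0.644-fold the sub-acute level (95% interval 0.409 to 1.01), a log2 fold change of -0.64 with a standard error of 0.33. Its raw p of 0.0576 was the smallest for these genes in any comparison, and its adjusted p was 0.184 in limma's test, so it was not called. *Penk* was at 0.908-fold (0.518 to 1.59), *Pdyn* at 0.983-fold (0.540 to 1.79) and *Tac1* at 1.35-fold (0.709 to 2.58). With 0 of 4 called and 0 of 4 at a raw p under 0.05, the genes stood against a background of 9.73% of tested genes called and 16.3% past the raw p and fold thresholds. Neither edgeR nor DESeq2 called any of the 4 here, where they called 13% and 14% of tested genes. For *Crh* the log2 fold change stayed negative in every alternative fit, between -0.70 and -0.10, with adjusted p from 0.136 (no filter on low counts) to 0.895 (surrogate variables). Within number series 1, with 5 sub-acute blast animals, it was -0.62 with a raw p of 0.157 in limma's test, and *Penk*, *Pdyn* and *Tac1* were at -0.41, -0.54 and -0.42. The value of *Tac1* in all animals was 0.43, so its direction turned within the series. With the series as a covariate in all animals, *Crh* was at -0.69, *Penk* at -0.45, *Pdyn* at -0.35 and *Tac1* at 0.07. Without the 2 shallow libraries they were at -0.67, -0.17, -0.04 and 0.53, with a raw p of 0.051 for *Crh* in limma's test. The library total as a covariate gave -0.70 for *Crh*, -0.60 for *Penk*, -0.05 for *Pdyn* and 0.86 for *Tac1*.

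The interaction of treatment and time-point, which subtracts the sham change over time from the blast change, was negative for all 4 genes. On the log2 scale it was -0.51 for *Crh* (95% interval -1.42 to 0.40), -0.51 for *Penk* (-1.65 to 0.64), -0.70 for *Pdyn* (-1.92 to 0.52) and -0.14 for *Tac1* (-1.44 to 1.16). Adjusted p ran from 0.879 to 0.985 in limma's test and raw p from 0.256 to 0.832. None of the 4 was called, where 0% of tested genes had an adjusted p under 0.05 and 5.56% a raw p under 0.05. EdgeR and DESeq2 called none of the 4 either, and each called 0% of tested genes. Without the 2 shallow libraries it was -0.50 for *Crh*, -0.37 for *Penk*, -0.65 for *Pdyn* and -0.06 for *Tac1*. These comparisons share their groups, so the negative sign here and in chronic blast against sham is in part the same measurement.

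**Figure D3:**
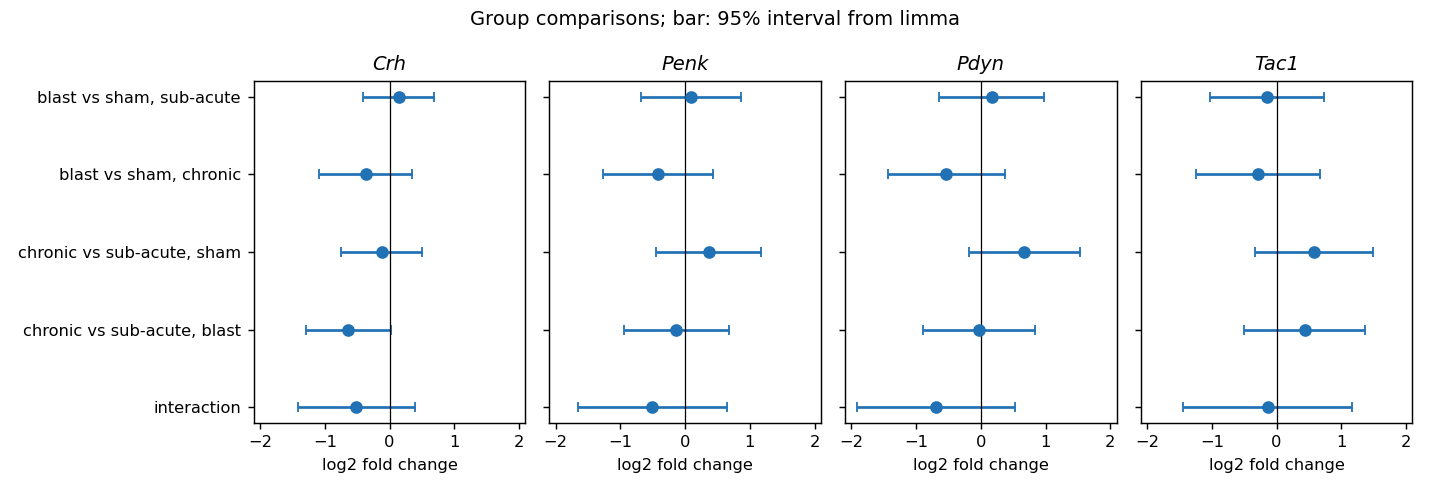
Log2 fold change of each neuropeptide gene in the 4 group comparisons and the interaction of treatment and time-point, with the 95% interval from limma as a bar and a vertical line at 0. All intervals include 0, and the one that comes nearest to leaving it out is *Crh* between chronic and sub-acute blast animals, with an upper end of 0.02.

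Although the groups did not differ beyond their spread, the genes rose and fell together from animal to animal. Deviations of log2 CPM from the group mean were correlated across the 62 animals for 5 of 6 pairs, with permutation within groups, 100000 resamples and two-sided p adjusted over the 6 pairs. *Penk* and *Pdyn*, the 2 opioid precursors, were the most alike, with r = 0.85 by Pearson and rho = 0.87 by Spearman (permutation p = 1e-05 for both, the smallest that the resamples can give, adjusted p = 1.5e-05 and 1.2e-05). *Pdyn* and *Tac1* had an r of 0.74 and a rho of 0.77 (permutation p = 1e-05 for both, adjusted p = 1.5e-05 and 1.2e-05). *Penk* and *Tac1* followed with an r of 0.50 (permutation p = 4e-05, adjusted p = 4.8e-05) and a rho of 0.57 (p = 1e-05, adjusted p = 1.2e-05).

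*Crh* went with the opioid precursors but not detectably with *Tac1*. Its r was 0.57 with *Penk* (rho 0.63) and 0.57 with *Pdyn* (rho 0.55), each with a permutation p of 1e-05 and an adjusted p of 1.5e-05 for r and 1.2e-05 for rho. With *Tac1* its r was 0.19 and its rho 0.19 (permutation p = 0.15 for both, adjusted p = 0.15). Leaving out the 2 animals farthest from the median of the first gene of a pair left r at 0.85 for *Penk* and *Pdyn*, 0.74 for *Pdyn* and *Tac1*, 0.52 for *Penk* and *Tac1*, 0.56 for *Crh* and *Penk*, 0.59 for *Crh* and *Pdyn* and 0.17 for *Crh* and *Tac1*. Without the 2 shallow libraries r was 0.86, 0.76, 0.54, 0.56, 0.57 and 0.22 for the pairs in the same order.

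Single animals show the pattern. Sub-acute sham animal AS237 had 1265 CPM of *Penk*, 239.5 CPM of *Pdyn* and 111.1 CPM of *Tac1*, each the highest of its group. Sub-acute blast animal AB108 was likewise the highest of its group for these 3 genes, at 1336, 235 and 131.8 CPM. Chronic blast animal CB135 was the lowest of its group for the same 3 genes, with 44.3 CPM of *Penk*, 7.96 CPM of *Pdyn* and 8.22 CPM of *Tac1*. However, *Crh* was near the middle of the group in animals AS237 and AB108, at 3.10 and 2.66 CPM. The opposite combination was seen in sub-acute blast animal AB227, which had the highest *Crh* of its group (8.01 CPM) and the lowest *Tac1* (4.67 CPM). For *Pdyn* and *Tac1*, 54 of 62 animals lay on the same side of both group medians, for *Penk* and *Pdyn* 48, for *Penk* and *Tac1* 46, for *Crh* and *Penk* 40, for *Crh* and *Pdyn* 38 and for *Crh* and *Tac1* 34. An animal at the median itself was counted as below it. These counts were not tested, and unrelated genes would also agree in part of the animals.

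**Figure D4:**
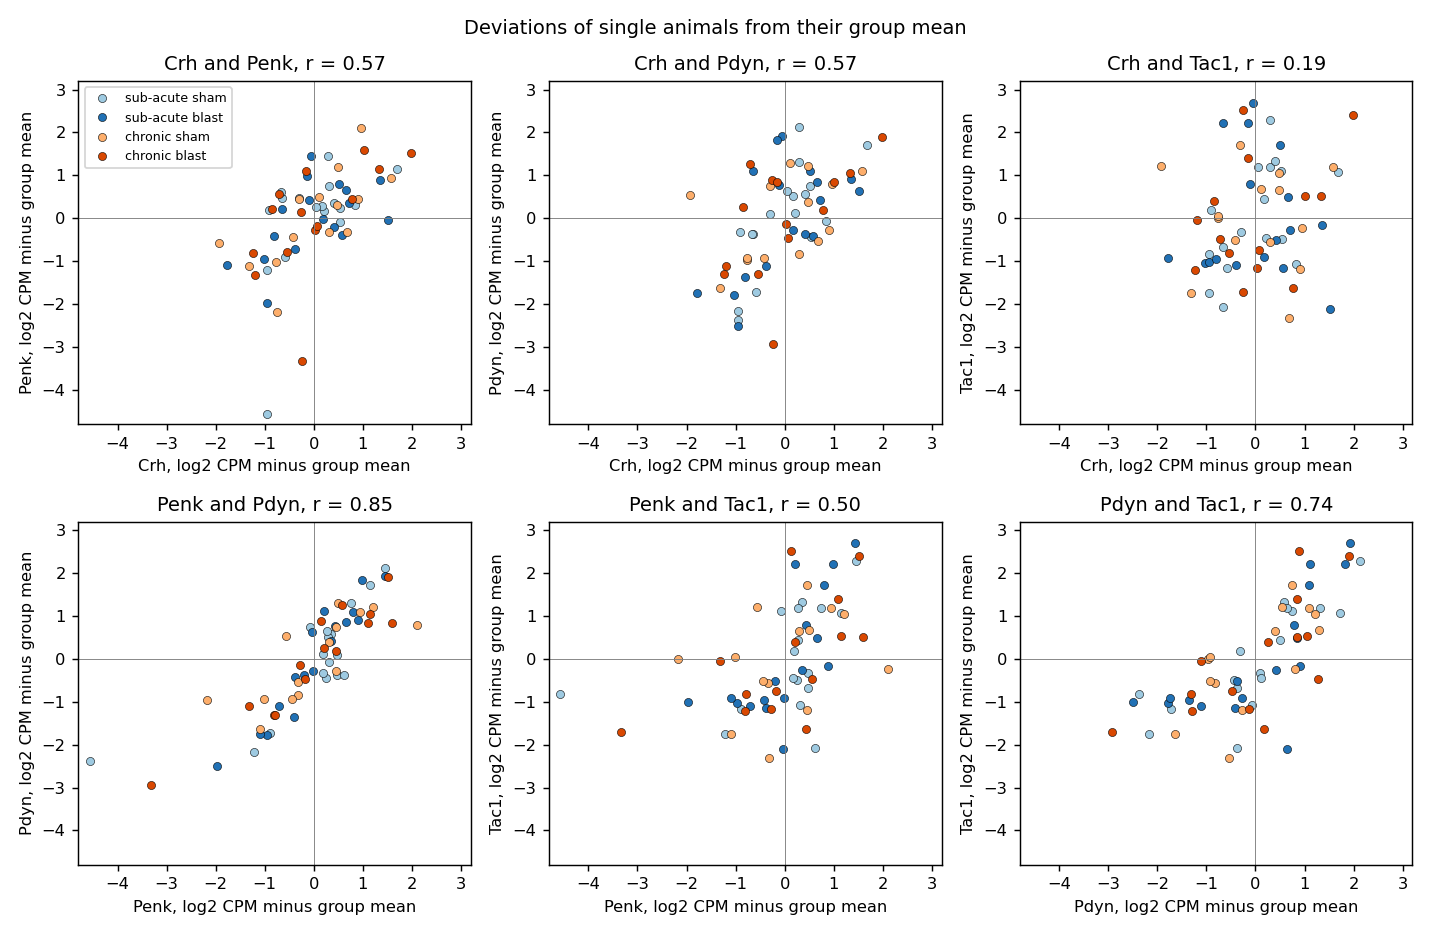
Deviation of each animal's log2 CPM from its group mean for the 6 pairs of neuropeptide genes, 1 point per animal, colored by group. Points lie along a line for *Penk* and *Pdyn* (r = 0.85), and form a wide cloud for *Crh* and *Tac1* (r = 0.19).

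The pairing of *Penk* with *Pdyn* and of *Pdyn* with *Tac1* was present in each of the 4 groups taken alone. For *Penk* and *Pdyn* r was 0.79 in sub-acute sham, 0.96 in sub-acute blast, 0.77 in chronic sham and 0.94 in chronic blast animals (adjusted permutation p of 6e-05, 6e-05, 0.0082 and 6e-05). For *Pdyn* and *Tac1* it was 0.81, 0.74, 0.72 and 0.70 in the same order (adjusted permutation p of 0.0003, 0.0026, 0.012 and 0.014). *Crh* and *Tac1* had an r of 0.54 in sub-acute sham animals (permutation test, adjusted p = 0.036), against -0.03 in sub-acute blast, -0.05 in chronic sham and 0.36 in chronic blast animals (permutation test, adjusted p = 0.91, 0.87 and 0.20). Whether these values of r differ between groups was not tested.

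Many other genes also moved with the neuropeptides, so these correlations are not particular to the 4 genes. An r above 0.5 was found with *Penk* for 4.15% of the other tested genes, with *Pdyn* for 5.33%, with *Tac1* for 4.5% and with *Crh* for 1.1%. In the order of r with *Penk*, *Pdyn* was at place 16 of 16534 genes (0.0968% at least as high), *Crh* at place 408 and *Tac1* at place 688. In the order for *Pdyn*, *Penk* was at place 47, *Tac1* at place 182 and *Crh* at place 596. For *Tac1* the nearest of the set was *Pdyn*, with 0.865% of genes at least as high, followed by *Penk* at place 746 and *Crh* at place 3961, and for *Crh* it was *Penk* at place 72, with *Pdyn* at 78 and *Tac1* at 2701. The highest r of any gene was 0.92 with *Penk*, 0.96 with *Pdyn*, 0.94 with *Tac1* and 0.77 with *Crh*. These leading genes are not named, because the gene IDs could not be paired with symbols.

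The spread was also described after patterns common to many genes had been fitted. After 9 surrogate variables, which are patterns estimated from all tested genes with the groups protected, the within-group SD fell from 1.16 to 0.42 for *Penk*, from 1.23 to 0.42 for *Pdyn*, from 1.31 to 0.40 for *Tac1* and from 0.88 to 0.60 for *Crh*. The correlation of what remained was 0.28 for *Penk* and *Pdyn* and 0.27 for *Pdyn* and *Tac1* (permutation test, adjusted p = 0.12 and 0.17), an alternative added after seeing the data. It was 0.21 for *Crh* and *Pdyn*, 0.04 for *Penk* and *Tac1*, -0.15 for *Crh* and *Penk* and -0.14 for *Crh* and *Tac1*. Which property of the samples the surrogate variables stand for was not tested.

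Because variation that 2 genes share drops out of their ratio within an animal, the 6 ratios were compared between groups as well, a test added after the values were seen. The within-group SD of the log2 ratio of *Pdyn* to *Penk* was 0.66, below the SD of either gene, and that of *Tac1* to *Pdyn* was 0.91, whereas *Tac1* to *Crh* reached 1.43. Of 30 tests over the 4 comparisons and the interaction, 1 had a raw p under 0.05 by permutation. It was the ratio of *Pdyn* to *Crh*, whose mean log2 value was 4.42 ± 0.87 (SD, n = 17) in sub-acute sham and 5.22 ± 1.04 (SD, n = 14) in chronic sham animals, a difference of 0.80 (permutation test, two-sided, p = 0.025, adjusted p = 0.75). In blast animals the same difference was 0.60 (permutation p = 0.14, adjusted p = 0.81). No ratio passed adjustment in any comparison. The ratio of *Pdyn* to *Penk*, which had the smallest error, was higher by 0.08 in sub-acute blast than sham animals and lower in chronic blast than sham animals, with a difference of -0.10 (permutation p = 0.76 and 0.65, adjusted p = 0.95 and 0.93). Without the 2 shallow libraries the difference in *Pdyn* to *Crh* with time in sham animals was 0.81 (permutation p = 0.029, adjusted p = 0.58). The ratio of *Tac1* to *Crh* with time in blast animals then also had a raw p under 0.05, with a difference of 1.21 in place of 1.03 (permutation p = 0.039, adjusted p = 0.58), and again none of the 30 tests passed adjustment. The difference in *Pdyn* to *Penk* between chronic blast and sham animals was -0.18 without these libraries (permutation p = 0.40, adjusted p = 0.85).

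The stretches just before the starts of *Pdyn* and *Tac1*, the only members with a promoter sequence at hand, are shown to let a reader compare them. They come from the RefSeq promoter table of the GRCr8 assembly, which differs from the build of the counts. It held 2 of the 4 genes by symbol, and *Crh* and *Penk* are named only. Each sequence is the 250 bases before the gene start, 5′ to 3′ on the strand of the gene, chr3:137366504-137366753 on the minus strand for *Pdyn* and chr4:36645333-36645582 on the plus strand for *Tac1*. Capitals mark matches to 4 motifs searched on both strands, the TATA box TATAAA, the E-box CACGTG, the cAMP response element TGACGTCA and its variant TGCGTCA, which do not overlap here.
Pdyn: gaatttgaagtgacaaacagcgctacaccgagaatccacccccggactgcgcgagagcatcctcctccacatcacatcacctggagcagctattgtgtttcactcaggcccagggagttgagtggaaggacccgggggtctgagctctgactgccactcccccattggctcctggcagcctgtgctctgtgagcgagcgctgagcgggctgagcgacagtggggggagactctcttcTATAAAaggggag
Tac1: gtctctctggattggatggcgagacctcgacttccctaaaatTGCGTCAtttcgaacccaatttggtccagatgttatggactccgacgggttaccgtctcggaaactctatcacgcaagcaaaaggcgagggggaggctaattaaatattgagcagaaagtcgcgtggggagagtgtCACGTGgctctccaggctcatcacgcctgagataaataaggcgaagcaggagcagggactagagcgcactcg

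The *Pdyn* stretch, with 59.2% G and C, had 1 match to the TATA box, which begins 13 bases before the start that the table uses. The *Tac1* stretch, with 52.4% G and C, had 1 match to the E-box, 72 bases before the start, and 1 to TGCGTCA further upstream. No motif was matched in both. Among the 33469 promoters in the table, 12.9% held TATAAA, 5.59% CACGTG, 1.59% TGACGTCA and 1.66% TGCGTCA in the same 250 bases. A match is a description of the letters and was not tested against the counts.

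**Figure D5:**
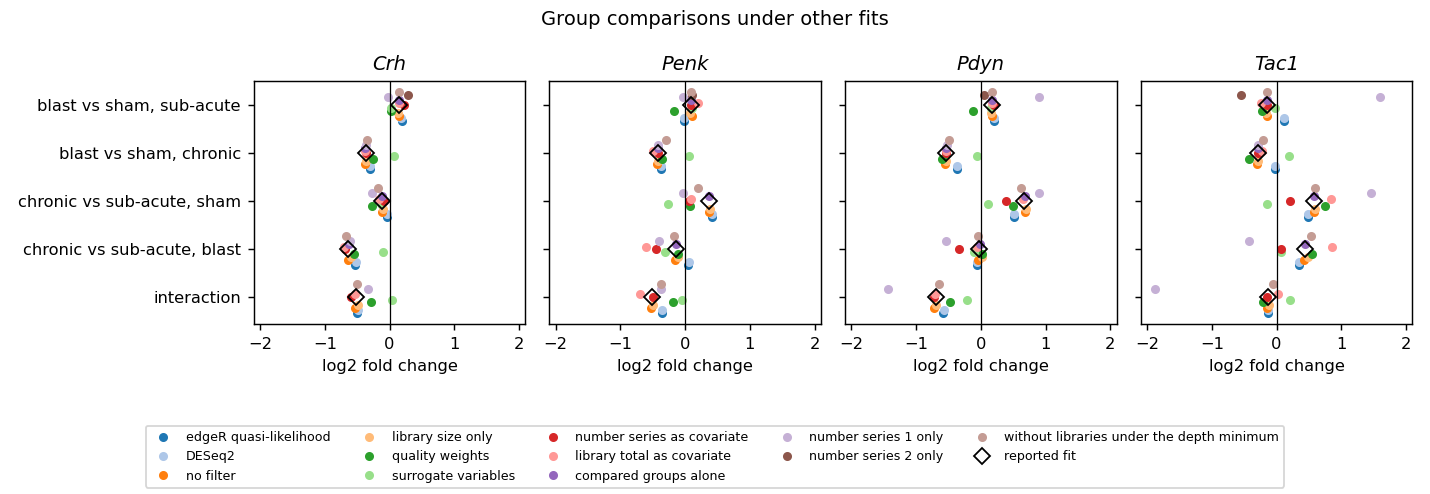
Log2 fold change of each neuropeptide gene in the 4 group comparisons and the interaction under 12 other fits (colored points) and in the fit reported here (open diamonds), with a vertical line at 0. Points stay within 1 unit of 0 apart from *Tac1* and *Pdyn* in number series 1, where 2 sub-acute sham animals are left, and *Crh* between chronic and sub-acute blast animals lies below 0 in all of them.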

How the data were processed

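The authors prepared stranded, rRNA-depleted libraries, aligned reads to the Rnor_6.0 genome (STAR 2.4.2a), then obtained gene counts from featureCounts 1.4.3-p1. The deposited values are raw counts, 1 column per animal. The strand setting and the handling of multi-mapped reads are not given in the sources used here, so values of overlapping genes are uncertain. The titles of the samples gave the groups, and 2 count columns that match no sample were used in no step.

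From these counts, 4 group means over 62 animals were fitted by voom with limma 3.58.1 (R 4.3.3), using TMM factors from edgeR 4.0.16. P-values were adjusted (Benjamini-Hochberg) across all 16535 genes past the expression filter of edgeR. The fold of 1.2 is a reading of the logFC of 1.2 in the study's methods. Log2 CPM had a prior count of 2. Genes to be named were the 4 members alone, because 0 of the 32545 gene IDs could be paired with a symbol, and planned lists of receptors and cell type markers were not run. Members, lists and alternatives were chosen with earlier results of these data known. Correlations and ratios used permutation tests with 100000 resamples. Other fits used DESeq2 1.42.0, quasi-likelihood in edgeR, surrogate variables (sva 3.50.0), and changed filters, scaling, weights, covariates and samples. No 2 libraries of a group matched within sampling noise (mean chi-square per gene at least 15.2). Animals are the replicates.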

Additional observations from a re-analysis of the deposited data

How the results depend on the processing

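The 4 genes were refitted in 4 comparisons and the interaction under 13 alternatives. None was called, none had a raw p under 0.05 (lowest 0.051), and 23 changed sign. Grouped by setting, the sign changed to these log2 values. With edgeR, sub-acute blast against sham gave -0.014 for *Penk* and 0.11 for *Tac1*, and chronic against sub-acute blast gave 0.048 for *Penk*. With DESeq2 the same values were -0.016, 0.11 and 0.059. Quality weights gave -0.17 (*Penk*) and -0.12 (*Pdyn*) for sub-acute blast against sham and 0.012 (*Pdyn*) for time in blast, where scaling by library size alone gave 0.0098. Surrogate variables gave 0.064 (*Crh*), 0.053 (*Penk*) and 0.19 (*Tac1*) for chronic blast against sham, -0.26 (*Penk*) and -0.14 (*Tac1*) for time in sham, and 0.036 (*Crh*) and 0.21 (*Tac1*) for the interaction, where the library total as a covariate gave 0.019 for *Tac1*. Number series 1 alone gave -0.026 (*Crh*), -0.040 (*Penk*) and 1.60 (*Tac1*) for sub-acute blast against sham, -0.029 (*Penk*) for time in sham and -0.42 (*Tac1*) for time in blast. Of the ratios, *Penk* to *Crh* turned to 0.050 for chronic blast against sham and 0.089 for the interaction without the 2 shallow libraries, an alternative added after seeing the data. The cause was not tested.

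Of 60 alternative correlations, 48 kept their sign and their side of the threshold. With single groups, *Penk* and *Tac1* fell below it in sub-acute sham (0.42) and chronic sham (0.30), as did *Crh* and *Pdyn* in chronic sham (0.43), while *Crh* and *Tac1* passed it in sub-acute sham (0.54) and turned to -0.030 in sub-acute blast and -0.047 in chronic sham. With surrogate variables removed, an addition after seeing the data, r was 0.21 for *Crh* and *Pdyn*, 0.28 for *Penk* and *Pdyn*, 0.044 for *Penk* and *Tac1*, 0.27 for *Pdyn* and *Tac1*, -0.15 for *Crh* and *Penk* and -0.14 for *Crh* and *Tac1*.

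The share of all tested genes called moved with the setting, for time in sham from 0% (number series 1) to 4.94% (quality weights) around the 1.55% reported, and for time in blast from 0.0847% (number series 1) to 20.6% (no filter) around 9.73%. With all animals kept and the number series as a covariate, it was 0.0121% for time in sham and 1.67% for time in blast. Counting error was well below the spread between animals, although *Crh* rests on as few as 26 counts in an animal. No paired analysis was possible because each animal belongs to 1 group and numbers are not repeated.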
